A study of Mus musculus with 6 samples.

Results

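The 9 genes described here make, break down or control polyamines, or use the arginine from which polyamines are made. They are Odc1, Amd1, Srm, Sms, Sat1, Azin1, Oaz1, Oaz2 and Nos2. They were taken by name from the 52550 genes of the count table, through the gene identifiers of the mouse annotation GENCODE M21, and all 9 were found. Splenic CD3+ T cells of wild type (WT) mice were activated for 24 h with antibodies to CD3 and CD28, the usual laboratory stand-in for a signal through the T cell receptor (TCR). The group called TCR alone has 3 samples with activation only. The group called TCR+DMGV has 3 samples in which DMGV was present at 100 ng/ml, in the same medium (RPMI with fetal bovine serum). DMGV, dimethylguanidino valeric acid, is a metabolite of the dimethylated arginines ADMA and SDMA. The sample labels name the added compound DMGV, whereas the study's text on this sequencing names LNY1, the active factor that it purified from the medium of fibroblasts and ascribed to ADMA and SDMA. The cells were primary T cells enriched from spleen by magnetic selection, and no unstimulated sample was analysed here, so the change brought about by activation itself is not covered.

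Polyamine synthesis starts from arginine. Arginine gives ornithine, ornithine decarboxylase turns ornithine into putrescine, and spermidine synthase and spermine synthase extend putrescine to spermidine and spermine with aminopropyl groups drawn from decarboxylated S-adenosylmethionine. Antizymes bind ornithine decarboxylase and send it to the proteasome, and antizyme inhibitors, which look like the enzyme but have lost its activity, take the antizymes away. T cells build up polyamines when they are activated, and Odc1 is a classic target gene of Myc. The question for these genes was whether the compound changed their messenger RNA in activated T cells.

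None of the genes in this set passed the test of a change. All 9 had enough counts for edgeR's quasi-likelihood test. Of them 0 had an adjusted p under 0.05 and 0 had an unadjusted p under 0.05, and in each of the 9 the values of the 2 groups overlapped. Over all 14786 genes tested, 0.0135% passed the adjusted threshold, 3.19% passed the unadjusted one and 8.86% had groups that did not overlap, with TCR+DMGV above in 4.92% and below in 3.94%. Log2 fold changes of the 9 genes ran from -0.27 for Oaz2 to 0.12 for Azin1, with a median of -0.02 beside 0.00 for all genes tested. How large a change could have been missed differed widely between the genes. The 95% interval of the fold change was narrowest for Srm, from 0.877 to 1.11 times, and widest for Nos2, from 0.469 to 2.21 times.

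The cells carried the messenger RNA that their label calls for. All 15 genes of a list of T cell markers were detected well enough to be tested, and the summed level of the list lay between 2401 and 2876 FPKM, a level corrected for transcript length and sequencing depth, in the 6 samples. Its most abundant gene was Trbc2, a constant part of the T cell receptor beta chain, with a mean of 643 FPKM. None of these 15 genes passed the adjusted threshold, although all 15 had a positive log2 fold change with a median of 0.10. In 3 of them the groups did not overlap, all with TCR+DMGV above. Of all genes tested 8.86% had such groups, 4.92% with TCR+DMGV above. Only Trbc1 of this list had an unadjusted p under 0.05 (0.0325 in edgeR, log2 fold change 0.22), beside 3.19% of all genes tested. B cell markers summed to between 126 and 141 FPKM, most of it Ighm, the heavy chain of IgM, with a mean of 115 FPKM. Of 9 tested B cell genes, 1 was lower in all TCR+DMGV samples, Blk (log2 fold change -1.52, unadjusted p 0.0217 in edgeR, at most 0.532 CPM). Another 1 was higher in all of them, Fcer2a (log2 fold change 0.40, unadjusted p 0.0898 in edgeR). Both had an adjusted p of 0.999. The neutrophil list was nearly empty, with 11 of its 13 genes at 0 counts in all samples, among them S100a8, S100a9 and Ly6g, and its most abundant gene, Csf3r, at a mean of 0.00842 FPKM. The macrophage and monocyte list summed to between 8.81 and 17.6 FPKM, of which Ly6c2, a surface protein that activated T cells also make, gave a mean of 8.09 FPKM, while Cd14, Mrc1, C1qc and Spic were at 0. Dendritic cell markers summed to between 238 and 283 FPKM, of which Ccr7, a homing receptor of T cells as well, gave a mean of 236 FPKM, and Clec9a, Siglech and Cd209a were at 0. The list of NK cells was led by Nkg7, a granule protein shared with cytotoxic T cells, with a mean of 94.5 FPKM. Of its 9 tested genes 8 had a positive log2 fold change, with a median of 0.18, and 0 passed the adjusted threshold. Klre1, a receptor of NK cells, had groups that did not overlap, with a log2 fold change of 1.37, an unadjusted p of 0.0383 and a CPM of at most 1.19. Erythroid markers summed to between 5.10 and 5.91 FPKM in TCR alone and between 2.43 and 4.69 FPKM in TCR+DMGV, without overlap. Their most abundant gene was the globin Hbb-bs with a mean of 1.39 FPKM and overlapping groups. Of 6 tested genes of this list, 2 had groups that did not overlap, Hba-a1 and Hba-a2, both lower in TCR+DMGV. Their log2 fold changes were -1.21 and -1.2 at levels of at most 1.24 and 1.29 CPM, and Hba-a2 had an unadjusted p of 0.0309 in edgeR. In this list 0 genes passed the adjusted threshold. The platelet list summed to at most 0.622 FPKM and was led by Pf4 with a mean of 0.156 FPKM. In bulk RNA of this kind, fewer cells of a type and less RNA in each cell cannot be told apart.

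A pair of libraries stood apart from the others. TCR alone replicate 3 and TCR+DMGV replicate 1 lay at 42.1 and 42.9 on the first principal component of log2 CPM (normalised read counts, scaled to equal library size), which held 32.2% of the variance, and the other 4 samples lay between -34.9 and -10.5. The same pair held more signal from GC-rich genes. Among 9036 genes past a mean log2 CPM of 3, the median deviation of genes with more than 53.3% GC minus that of genes with less than 47.1% GC was 0.27 on the log2 scale in TCR alone replicate 3 and 0.15 in TCR+DMGV replicate 1, against values from -0.20 to -0.03 in the other 4 samples. Each group held 1 of the pair, so this difference did not separate the groups.

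The genes covered a very wide range of levels, and their order by gene FPKM was almost the same in every sample. Srm, the spermidine synthase that makes spermidine from putrescine, was the highest, with 275 ± 19.3 FPKM in TCR alone and 269 ± 8.48 FPKM in TCR+DMGV (mean ± SD, n = 3 each, as for all values of this form). Odc1, ornithine decarboxylase, came next at 226 ± 37.7 and 220.1 ± 20.4 FPKM, and it was below Srm in 6 of 6 samples although the ranges of the genes touched. They stood at percentiles 99.3 and 99.2 of the 22526 genes with at least 1 count. By the deposited transcript FPKM their order was not fixed. The main transcript Odc1-201 had 402 FPKM and Srm-201 had 303 in TCR alone replicate 2, against 283 and 300.2 in replicate 1. Odc1-201 was also the higher in TCR+DMGV and the lower in TCR alone replicate 3. Amd1, the S-adenosylmethionine decarboxylase that supplies the aminopropyl groups, had a level of 65.3 ± 17.7 FPKM in TCR alone and 62.1 ± 13.2 FPKM in TCR+DMGV. Oaz1, the main antizyme, had 42.2 ± 4.83 and 43.5 ± 3.66 FPKM, below Amd1 in 5 of 6 samples. The only sample in which Oaz1 was the higher of the 2 genes was TCR alone replicate 3. This order holds for gene FPKM only. By the deposited transcript FPKM, Oaz1-203 by itself was above Amd1-201 in TCR alone replicate 3 and TCR+DMGV replicates 1 and 3. In TCR+DMGV replicate 1 the values were 67.8 and 52.1 FPKM. In the other samples Oaz1-203 by itself was below Amd1-201.

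**Figure D1:**
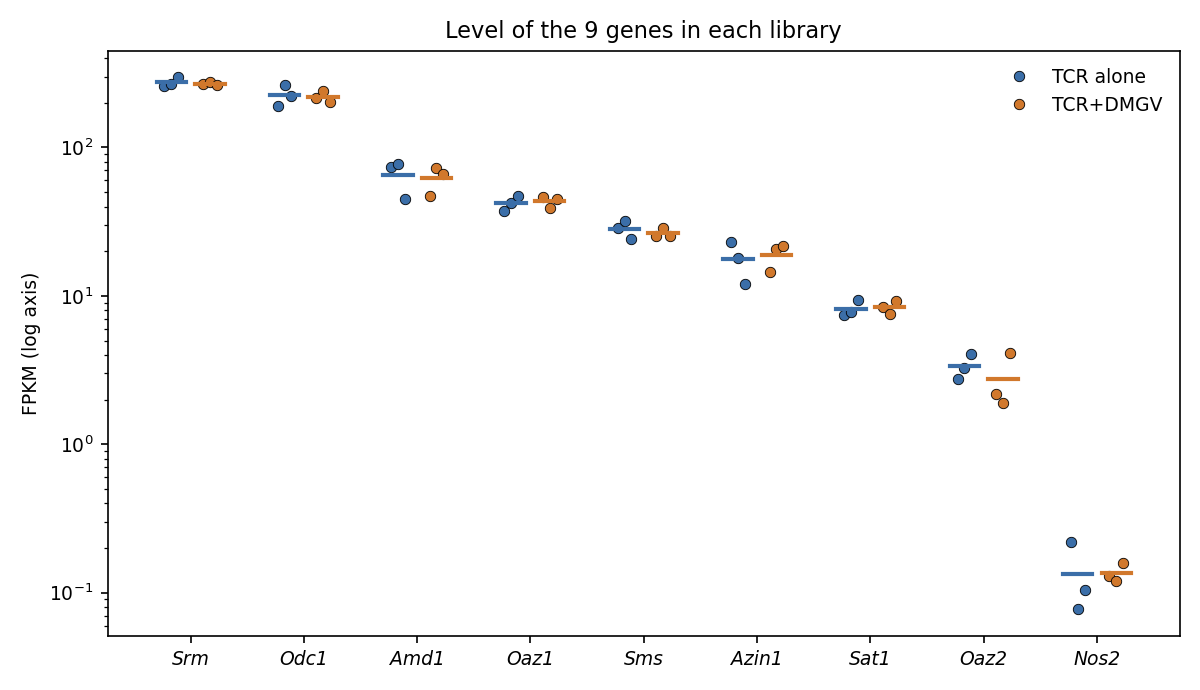
FPKM of each gene on a log axis, with 1 point for each library and a short bar at the mean of each group of 3, ordered by the mean of all 6 samples. Srm and Odc1 lie at 189 FPKM or more in every library, Nos2 lies at 0.220 FPKM or less, and the points of both groups overlap for all genes.

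Below these came Sms, spermine synthase, at 28.4 ± 4.01 and 26.4 ± 1.97 FPKM, and Azin1, antizyme inhibitor 1, at 17.7 ± 5.52 and 19.0 ± 3.95 FPKM. Sat1, which acetylates spermidine and spermine so that they can be broken down or exported, had 8.20 ± 1.06 and 8.40 ± 0.812 FPKM. Oaz2, the less abundant antizyme, had 3.35 ± 0.646 and 2.74 ± 1.23 FPKM. From Oaz1 down to Oaz2, the ranges of neighbouring genes did not overlap. The step below Oaz2 was the largest, since the ratio of Oaz2 to the next gene, Nos2, within a sample had a mean of 25.3. The inducible nitric oxide synthase Nos2 was near the detection limit, at 0.134 ± 0.0754 and 0.136 ± 0.0206 FPKM. The plot of levels by library shows the gap between Nos2 and the other 8 genes.

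Among the enzymes that make polyamines, Odc1 (ENSMUSG00000011179.8, chr12:17544794-17551505, plus strand, GRCm38) is the first and the most regulated. Its normalised read count was 718, 1032 and 834 CPM in TCR alone replicates 1 to 3, and 813, 941 and 789.5 CPM in TCR+DMGV replicates 1 to 3. The highest and the lowest value both belonged to TCR alone, and all 3 values of TCR+DMGV fell between them. Odc1 had a log2 fold change of -0.02 with a standard error of 0.14 and an adjusted p of 0.999 in edgeR. Its 95% interval of -0.35 to 0.31 leaves room for a fall to 0.783 times or a rise to 1.24 times. Odc1-201, the standard coding transcript, held between 96.1% and 98.5% of the Odc1 counts in each sample.

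Amd1 (ENSMUSG00000075232.5, chr10:40287458-40302186, minus strand) had 289.5, 314 and 175 CPM in TCR alone and 185, 292 and 272 CPM in TCR+DMGV. In each group 1 sample was far lower than the others, and these were the libraries that stood apart, TCR alone replicate 3 and TCR+DMGV replicate 1. The groups overlapped, with a log2 fold change of -0.06, a standard error of 0.25 and a 95% interval of -0.64 to 0.53. Amd1 has a second coding copy in the mouse genome, Amd2, which had 1164, 970 and 475 counts without the compound and 475, 1036 and 904 with it. Amd2 was therefore lowest in the same libraries as Amd1. How reads that fit both copies were shared out is not given in the sources used here, so the split between Amd1 and Amd2 is uncertain.

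Srm (ENSMUSG00000006442.10, chr4:148591503-148594993, plus strand) was the steadiest gene of the set. Its values were 465, 489.8 and 521 CPM in TCR alone and 469.9, 508 and 481 CPM in TCR+DMGV. The highest sample was 1.12 times the lowest, and TCR alone held both the lowest and the highest. The SD of Srm within groups was 0.07 on the log2 CPM scale, lower than that of all but 12.2% of the 9043 genes with a mean log2 CPM above 3, whose median SD was 0.14. Its log2 fold change of -0.02 had a standard error of 0.07, and its 95% interval of -0.19 to 0.16 was the narrowest of the set.

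Sms (ENSMUSG00000071708.11, chrX:157443855-157492287, minus strand) had 193, 222 and 159.7 CPM in TCR alone and 167, 197 and 175 CPM in TCR+DMGV. TCR alone held both ends of this range, as for Odc1. For Sms the log2 fold change was -0.09 with a standard error of 0.13 and a 95% interval of -0.40 to 0.21. As for Odc1, a single coding transcript carried each of these genes. The share of that transcript was at least 98.3% for Amd1-201, 94.7% for Srm-201 and 91.7% for Sms-201 in every sample.

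Sat1 (ENSMUSG00000025283.15, chrX:155213132-155216449, minus strand) is the acetyltransferase that opens polyamine breakdown. It had 22.9, 24.9 and 28.7 CPM in TCR alone and 26, 24.0 and 29.3 CPM in TCR+DMGV, so the groups were interleaved. Sat1 had a log2 fold change of 0.05 with a standard error of 0.13 and a 95% interval of -0.24 to 0.34. Sat1 differed from the synthetic enzymes in having 5 transcripts that held at least 10% of its counts in some sample, of which Sat1-205 and Sat1-206 are annotated as retaining an intron. One of them, Sat1-207, carries an extra exon of 110 bases at chrX:155215121-155215230 that brings in an early stop codon, and the annotation marks it for nonsense-mediated decay. This exon is known from other cells as a switch by which Sat1 messenger RNA is made unproductive. The stretch around that stop codon is shown because it tells Sat1-207 from the coding transcript, with the stop codon in capitals and the sequence read 5′ to 3′ on the messenger strand of the GENCODE M21 transcript.
Sat1-207: ggttacagtctcTAGcttcgccatgta

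The share of Sat1-207 in the Sat1 counts was 8.27%, 7.08% and 1.35% without the compound and 16.1%, 8.14% and 10.7% with it. Its CPM was higher in all 3 samples of TCR+DMGV than in any of TCR alone, while its share overlapped. A log2 fold change of 1.2 had a standard error of 0.67 and an adjusted p of 1.0 in edgeR. The coding transcript Sat1-201 held 66.6 ± 5.04% in TCR alone and 60.0 ± 13.8% in TCR+DMGV. Sat1-205 had from 1.30% to 13.3% over the 6 samples, with overlapping groups. The share of Sat1-206 was 4.13%, 3.83% and 6.49% without the compound and 8.22%, 7.07% and 14.2% with it, so that the shares did not overlap, while its CPM did. Its unadjusted p in edgeR was 0.0846 for the level of the transcript and 0.442 for its use within the gene. Sat1-202, a shorter coding transcript, was the least steady. It held 5.05%, 6.0% and 27% of the Sat1 counts without the compound and 32.8% in TCR+DMGV replicate 2, and it was listed at 0 in TCR+DMGV replicates 1 and 3, where 0 of 1156 and 0 of 1162 counts allow a share of up to 0.260% and 0.258%. A test of transcript use within the gene, edgeR's diffSpliceDGE with Simes' method, gave Sat1 an adjusted p of 1.0. Without TCR+DMGV replicate 2 the same test gave an adjusted p of 0.00955, in a fit where 171 of 8232 genes passed. The result for Sat1 thus differed with and without that library, and the cause was not tested.

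The antizymes Oaz1 (ENSMUSG00000035242.15, chr10:80826656-80829290, plus strand) and Oaz2 (ENSMUSG00000040652.16, chr9:65668001-65690300, plus strand) are unusual messenger RNAs. The ribosome must shift frame at the stop codon TGA to make the whole protein, and polyamines promote that shift, so the pathway is sensed in translation and not in the level measured here. The annotation handles the shift by leaving bases out of some transcripts, and the stretch is shown because the most abundant transcripts of both genes differ there. Capitals mark the bases TCCTGA in the transcripts that keep the site whole and TCCGA in those without its T, and there are no capitals where TCCT is absent. The sequences are read 5′ to 3′ from the GENCODE M21 transcripts. In Oaz1-201 a gap of 4 bases, TCCT, is annotated at chr10:80828292-80828295, and in Oaz1-203 a gap of 1 base, T, at chr10:80828295. In Oaz2-201 the gap of 4 bases is at chr9:65686269-65686272, and in Oaz2-206 the gap of 1 base is at chr9:65686272.
Oaz1-205: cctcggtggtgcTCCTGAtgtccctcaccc
Oaz1-203: cctcggtggtgcTCCGAtgtccctcaccc
Oaz1-201: cctcggtggtgcgatgtccctcaccc
Oaz2-205: cctctgtggtgcTCCTGAtgcccctcaccc
Oaz2-206: cctctgtggtgcTCCGAtgcccctcaccc
Oaz2-201: cctctgtggtgcgatgcccctcaccc

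An antizyme messenger RNA reads like the first line of each gene, so the split of the counts among these transcripts rests partly on bases that the annotation removed. Oaz2-201 and Oaz2-206 are identical but for 3 bases at this site, with lengths of 1840 and 1843 bases. Oaz1-201, of 1071 bases, and Oaz1-203, of 744 bases, also differ in length. The coding transcript Oaz1-205, with the whole site, held from 3.84% to 5.86% of the Oaz1 counts in the 6 samples, while Oaz1-201 held from 36.4% to 52.9% and Oaz1-203 from 34.1% to 49.9%. Neither of these major transcripts separated the groups. Oaz1-201 held 41.9 ± 4.91% in TCR alone and 44.0 ± 8.16% in TCR+DMGV, and Oaz1-203 held 41.5 ± 2.33% and 42.2 ± 7.91%. The whole-gene values are free of this split.

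As a gene, Oaz1 had 107, 123 and 132 CPM in TCR alone and 130.2, 115 and 132 CPM in TCR+DMGV. The groups overlapped, with a log2 fold change of 0.06, a standard error of 0.10 and a 95% interval of -0.19 to 0.30. The processed pseudogene Oaz1-ps, a copy of the Oaz1 messenger RNA, was listed with 1018 to 1334 counts beside the 4062 to 5797 of Oaz1, and the same reservation on shared reads applies.

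Oaz2 was the least steady of the well expressed genes. It had 9.19, 11.3 and 13.3 CPM in TCR alone and 7.19, 6.55 and 14.3 CPM in TCR+DMGV. The 2 lowest samples and the highest one were all of TCR+DMGV. Its log2 fold change of -0.27 was the largest of the set in size, with a standard error of 0.32 and a 95% interval of -1.01 to 0.47. Without TCR+DMGV replicate 3 it was -0.71 with an unadjusted p of 0.0127 and an adjusted p of 1.0 in edgeR, and without both libraries that stood apart it was 0.03. Oaz2-205, which retains an intron, held 0.287%, 18% and 19.7% of the Oaz2 counts without the compound and 25.3%, 32.6% and 24.9% with it. Its share was higher in every sample with the compound than in any without it, and its unadjusted p was 0.608 for the level of the transcript and 0.414 for its use within the gene. Oaz2-201 held 56.7 ± 8.50% and 52.9 ± 9.80%, and Oaz2-206 held 19.5 ± 8.93% and 14.1 ± 2.31%, with overlapping groups for both. The transcript Oaz2-204 held 29.2% of the Oaz2 counts in TCR alone replicate 1 (95% Wilson interval 24.7 to 34.2%) and was listed at 0 in the other 5 samples. Intervals of this kind cover counting error only.

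Azin1 (ENSMUSG00000037458.14, chr15:38487427-38519266, minus strand) works against the antizymes and so protects ornithine decarboxylase. It had 160.1, 129 and 82.3 CPM in TCR alone and 99.2, 148 and 155 CPM in TCR+DMGV. As for Amd1, the lowest samples were TCR alone replicate 3 and TCR+DMGV replicate 1. Azin1 had a log2 fold change of 0.12 with a standard error of 0.26 and a 95% interval of -0.50 to 0.73.

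Most of the Azin1 counts went to transcripts that differ in whether they carry an early stop codon. Azin1-205 has an exon lengthened by 152 bases at chr15:38497399-38497550, and these bases hold an early stop codon at chr15:38497535-38497537, so the annotation marks this transcript for nonsense-mediated decay. The stretch around the stop codon, which is in capitals, is shown because it is read into Azin1-205 and not into the coding transcripts. Azin1-203, a coding transcript, has an exon of 160 bases at chr15:38507187-38507346 ahead of its start codon that the others lack. Azin1-201, also coding, runs 811 bases further at its 3′ end than Azin1-203.
Azin1-205: attgtttttcatTAGgttcacttgatt

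Azin1-205 held 56.1%, 52.3% and 38.6% of the Azin1 counts without the compound, and 8.33%, 57.4% and 33.8% with it. Its share in TCR+DMGV replicate 1 was far below that of all other samples. Azin1-203 held 35.3%, 43.8% and 57.1% in TCR alone and 67.0%, 33.1% and 29.4% in TCR+DMGV, so its highest and its lowest samples both carried the compound. Azin1-201 held 7.43%, 3.71% and 3.43% in TCR alone and 24.3%, 8.78% and 36.3% in TCR+DMGV. For Azin1-201 the groups did not overlap. Counting error gave these shares 95% Wilson intervals of at most 1.7 percentage points on either side, far less than the spread between samples.

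The difference in Azin1-201 was not past the threshold. Its log2 fold change was 2.26 with a standard error of 0.77, an unadjusted p of 0.0276 and an adjusted p of 1.0 in edgeR over 38401 transcripts, of which 0 passed the adjusted threshold, 3.22% passed the unadjusted one and 9.25% had groups that did not overlap. With 1 sample left out, the log2 fold change of Azin1-201 ran from 1.51 without TCR+DMGV replicate 3 to 3.00 without TCR alone replicate 1. Its unadjusted p for use within the gene was 0.0229, with an adjusted p of 1.0, and 2.51% of 31381 transcripts had an unadjusted p under 0.05 in that test. Over all transcripts of the gene the test of use gave Azin1 an unadjusted p of 0.0915 and an adjusted p of 1.0, among 7783 genes of which 1.39% passed. Of the 38 transcripts of the set that were tested, 1 had an unadjusted p under 0.05, which was Azin1-201, and 3 had groups that did not overlap, which were Azin1-201, Sat1-207 and Nos2-201. Counted by share of the gene instead of CPM, 4 of the 37 transcripts tested for use had groups that did not overlap, beside 9.31% of all such transcripts. They were Azin1-201, Sat1-206 and Oaz2-205, with higher shares in TCR+DMGV, and Odc1-201, with a mean share of 97.3% in TCR alone and 96.2% in TCR+DMGV. In the test of transcript use, 0 of the 8 genes with more than 1 tested transcript passed the adjusted threshold and 0 had an unadjusted p under 0.05, beside 4.34% of all genes in that test.

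**Figure D2:**
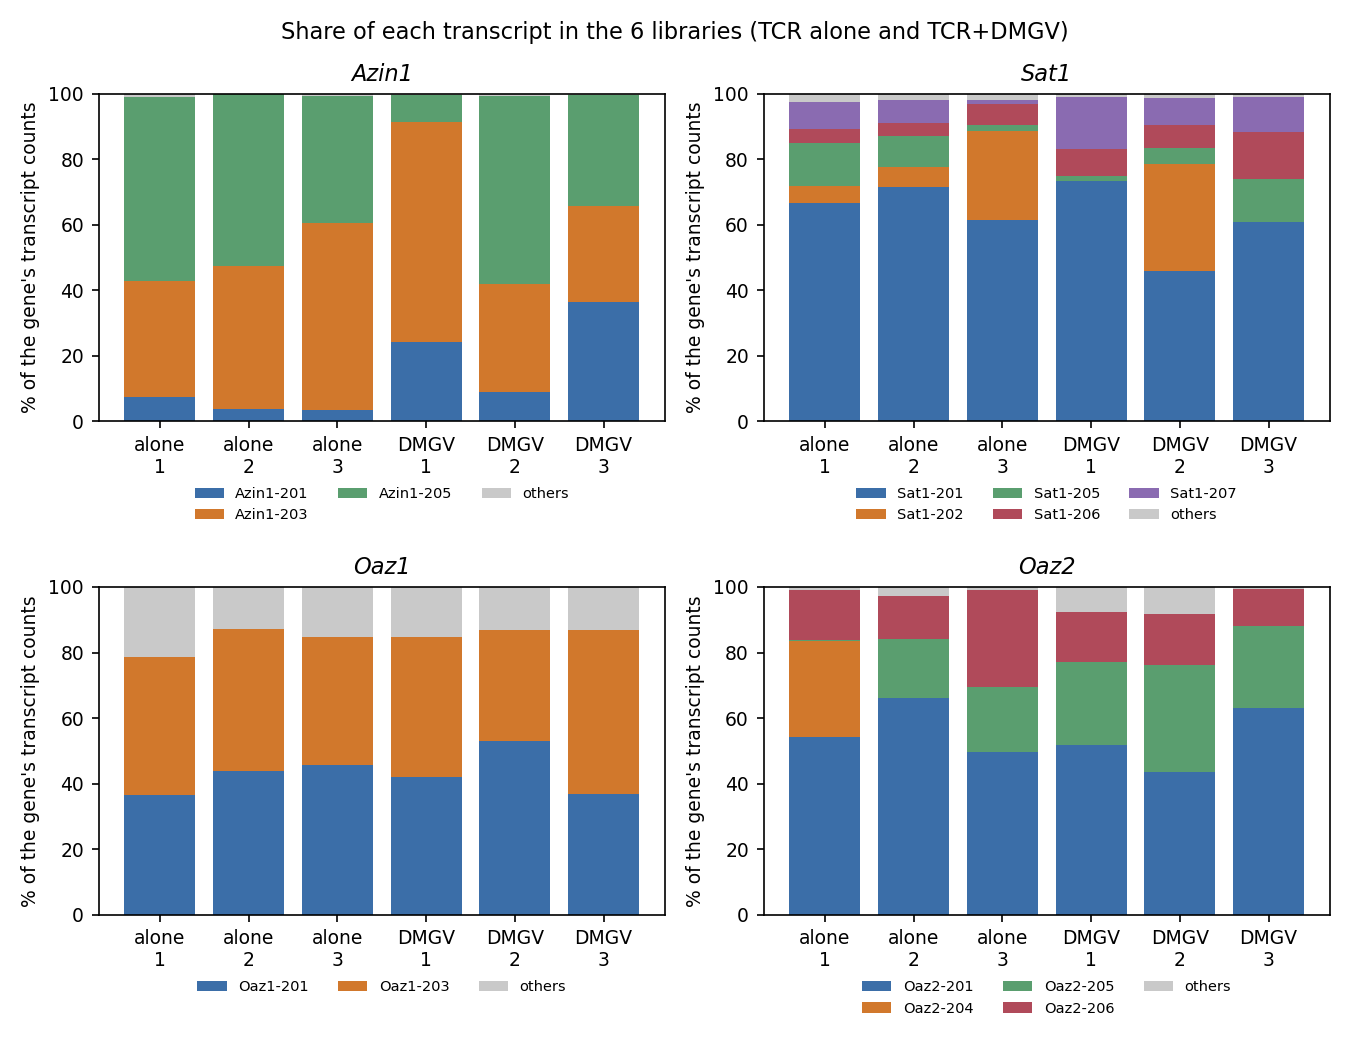
Share of each gene's transcript counts, in percent, held by its transcripts in the 6 libraries, as stacked bars. Azin1-201 (bottom of its bars) holds 7.43% or less in TCR alone and 8.78% or more in TCR+DMGV, Azin1-205 drops to 8.33% in TCR+DMGV replicate 1, and Sat1-202 and Oaz2-204 appear in some libraries and are listed at 0 in others.

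The arginine user came last in level. Nos2 (ENSMUSG00000020826.8, chr11:78920787-78960254, plus strand), best known from activated macrophages, had 42, 16 and 22 counts without the compound and 28, 27 and 32 with it. TCR alone held both the highest and the lowest value. Nos2 had a log2 fold change of 0.03 with a standard error of 0.48, and the 95% interval runs from -1.09 to 1.15, that is from 0.469 to 2.21 times. In the highest sample, TCR alone replicate 1, 57.1% of the Nos2 counts were given to Nos2-203 (95% Wilson interval 42.2 to 70.9%), a transcript listed at 0 in the other 5 samples, where totals of 16 to 32 counts allow a share of up to 18.8% to 9.38%. The other nitric oxide synthases were lower still, with Nos1 at a mean of 0.262 and 0.271 CPM in TCR alone and TCR+DMGV, and Nos3 at 0.228 and 0.141 CPM.

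**Figure D3:**
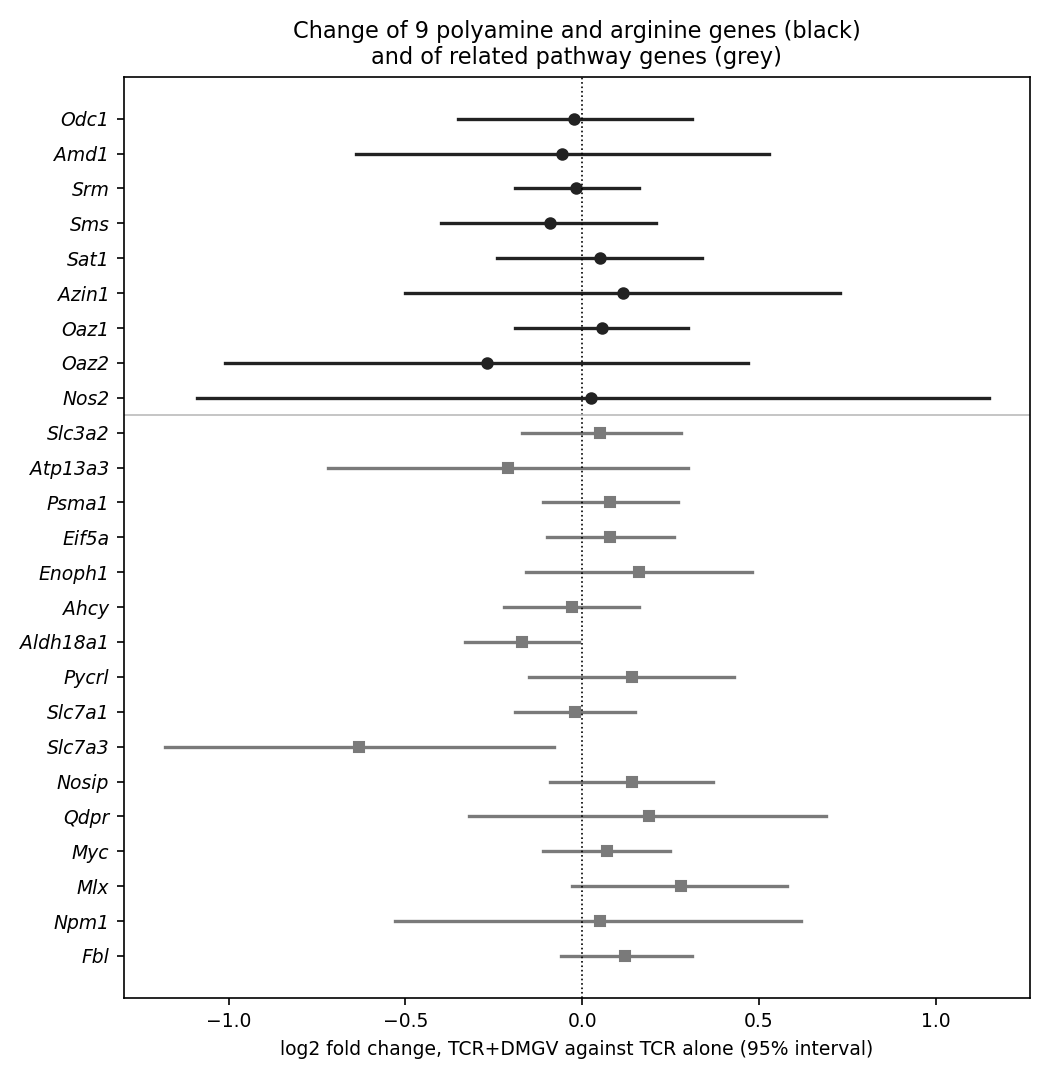
Log2 fold change, TCR+DMGV against TCR alone, with its 95% interval from edgeR, for the 9 genes that were tested (black circles) and for genes of the related pathways (grey squares). All 9 black intervals cross 0, Slc7a3 and Aldh18a1 are the grey intervals that do not, and Azin2 is not drawn because its interval runs from -4.04 to 0.89.

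Because the output of the pathway depends on the balance of its parts, 5 ratios of gene FPKM were compared within samples. The ratio of Odc1 to Oaz1, the enzyme to its main inhibitor, was 5.05, 6.29 and 4.74 in TCR alone and 4.69, 6.16 and 4.49 in TCR+DMGV, and the ranges overlapped. The size of this ratio holds for gene FPKM only, since the transcript FPKM of Oaz1 are not on the same scale. Its log2 difference between the groups was -0.0716, and -0.0702 with summed transcript FPKM. The ratio of Odc1 to Azin1 was 8.21, 14.6 and 18.6 in TCR alone and 15, 11.7 and 9.29 in TCR+DMGV. It was the least steady of the ratios, with an SD on the log2 scale of 0.60 in TCR alone. The ratio of Srm to Sms had a log2 mean of 3.28 ± 0.30 and 3.35 ± 0.06, that of Sat1 to Srm -5.07 ± 0.08 and -5.01 ± 0.19, and that of Amd1 to Odc1 -1.82 ± 0.47 and -1.85 ± 0.31. The differences between the groups ran from -0.15 to 0.07 on the log2 scale. The two-sided exact permutation p was 0.5 for Odc1 to Oaz1, 0.6 for Sat1 to Srm, 0.8 for Odc1 to Azin1 and for Srm to Sms, and 1.0 for Amd1 to Odc1, and the adjusted p over the 5 ratios was 1.0 for each. With 3 samples against 3 the smallest p this test can give is 0.1.

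Part of the variation of these genes between samples went with the GC content of their transcripts. Azin1 and Amd1 have the lowest GC content of the set, 39.7% and 41.4%, and both were lowest in the libraries with the strongest signal from GC-rich genes. Before a correction for GC content, which was added after the data were seen, the SD of Azin1 on the log2 CPM scale was 0.49 in TCR alone and 0.36 in TCR+DMGV. After the correction it was 0.10 and 0.07. For Amd1 the SD went from 0.46 and 0.36 to 0.14 and 0.13. The correction did not steady every gene, since the SD of Sat1, at 44.3% GC, went from 0.16 to 0.32 in TCR alone, and those of Odc1, at 52.2%, and Oaz2, at 52.7%, hardly moved.

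With the GC content taken into account, Azin1 had the smallest p of the set and did not pass the adjusted threshold. Its log2 fold change was 0.23 with a standard error of 0.08, an unadjusted p of 0.0183 and an adjusted p of 0.999 in edgeR, and all 3 samples of TCR+DMGV were above all 3 of TCR alone. In that fit 4.03% of all genes tested had an unadjusted p under 0.05 and 10.4% had groups that did not overlap. A separate fit, with no GC correction, left out both libraries that stood apart. There the log2 fold change of Azin1 was 0.07 with an unadjusted p of 0.583 in edgeR, against 0.12 in the main test. For Amd1 the log2 fold change turned from -0.06 to 0.03 under the GC correction, and its standard error fell from 0.25 to 0.09.

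**Figure D4:**
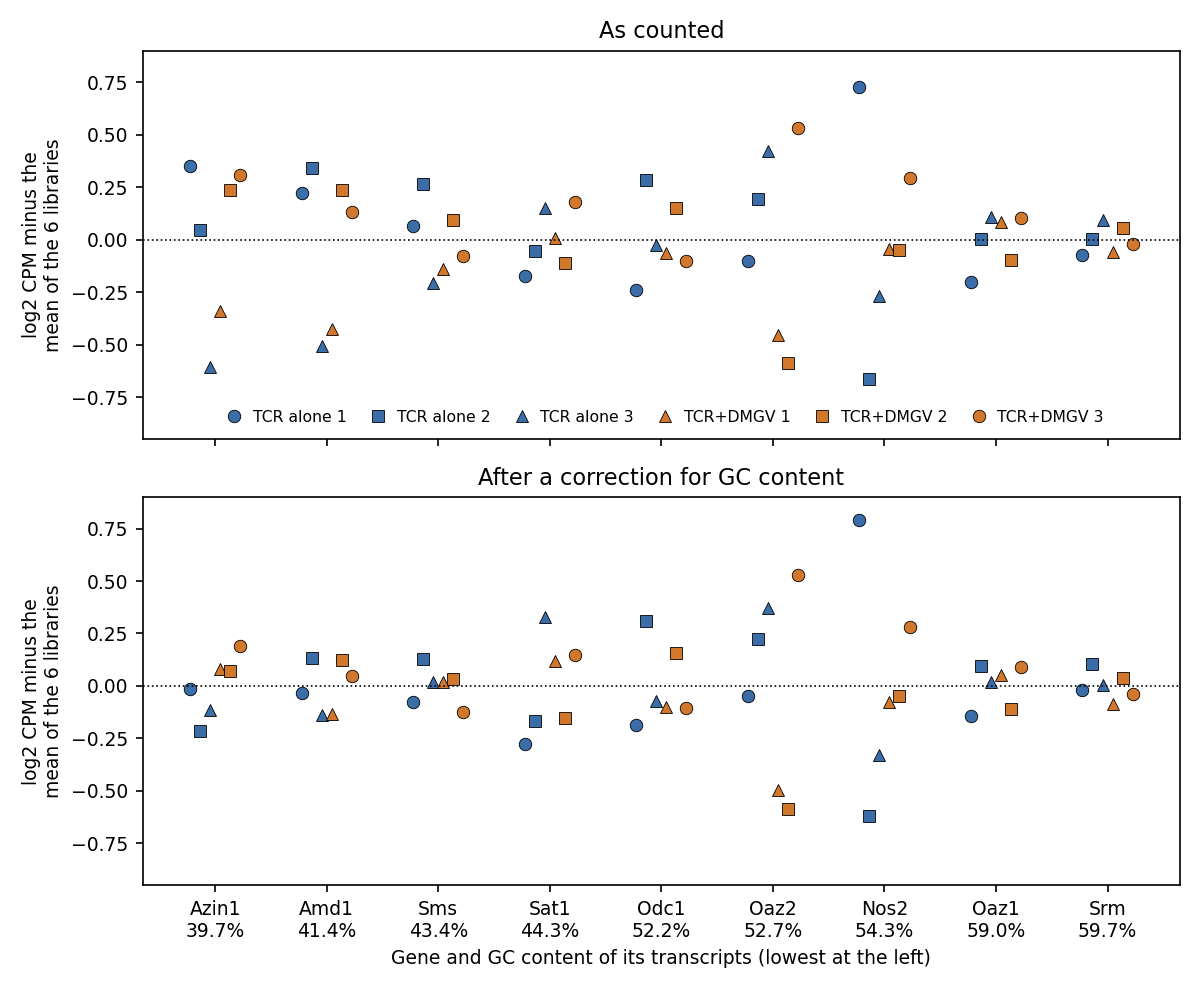
Deviation of each library's log2 CPM from the mean of the 6 libraries, for the 9 tested genes in order of GC content, as counted (top) and after a correction for GC content (bottom). Triangles mark the libraries that stood apart, which are lowest for Azin1 and Amd1 in the top panel and lie within 0.14 of the mean there in the bottom panel, while the points of Oaz2 and Nos2 hardly move.

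Among the genes around this pathway none passed the adjusted threshold. Of 9 lists with 91 genes in all, 74 were tested, of which 2 had an unadjusted p under 0.05 and 6 had groups that did not overlap, 2 above and 4 below, beside 3.19% and 8.86% of all genes tested. Export and breakdown of polyamines had 5 of 9 genes tested, 4 of them with a higher mean in TCR+DMGV, and a median log2 fold change of 0.05. Slc3a2, the shared heavy chain of several amino acid transporters, was the most abundant of them at a mean of 38.7 FPKM and had a log2 fold change of 0.05. Atp13a3, a polyamine transporter, had the smallest p of that list, with a log2 fold change of -0.21 and a 95% interval of -0.72 to 0.30. With each sample left out in turn, its log2 fold change ran from -0.405 to -0.023. It was -0.296 without both libraries that stood apart (unadjusted p 0.046 and adjusted p 0.762 in edgeR) and -0.086 under the GC correction. Sat2 was listed at 0 in all samples. In the list of antizyme relatives 4 of 5 genes were tested, with a median of 0.04, and the proteasome subunit Psma1 was the most abundant at a log2 fold change of 0.08. Azin2, a second antizyme inhibitor, had between 0 and 1.28 CPM.

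Spermidine is also the donor for hypusine, the modified amino acid that the translation factor eIF5A needs. All 4 genes of that list were tested, and their median log2 fold change was 0.05. Eif5a itself, at 712 FPKM above every gene of the set, had 1723, 1835 and 1996 CPM in TCR alone and 1931, 1902 and 2036 CPM in TCR+DMGV, with a 95% interval of -0.10 to 0.26. The methionine cycle and salvage genes, which supply S-adenosylmethionine and recycle the remnant of the aminopropyl transfer, had 10 of 11 genes tested, 3 with a higher and 7 with a lower mean in TCR+DMGV, and a median of -0.03. Ahcy, which clears S-adenosylhomocysteine, was the most abundant at 178 FPKM with a log2 fold change of -0.03, and Enoph1, an enzyme of methionine salvage, had the smallest p with 0.16.

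The genes with an unadjusted p under 0.05 in the main test were an enzyme and a transporter, and neither stayed under 0.05 in every alternative run. Aldh18a1, which makes the precursor of proline and ornithine from glutamate, had 177, 178 and 174 CPM in TCR alone and 153, 154 and 162 CPM in TCR+DMGV. All 3 samples with the compound were below all 3 without it, with a log2 fold change of -0.17, a standard error of 0.07, an unadjusted p of 0.036 and an adjusted p of 0.999 in edgeR. Of the 16 genes of this list 11 were tested, with a median of 0.02. Pycrl, a pyrroline-5-carboxylate reductase of proline synthesis, was the most abundant at 45.2 FPKM. Otc, an enzyme that uses ornithine in the urea cycle, was listed at 0.

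Among the transporters of arginine and other cationic amino acids, Slc7a1 was the main one, with a mean of 26.7 FPKM and a log2 fold change of -0.02. Slc7a3, a second transporter of the same family, had 2.98, 2.62 and 3.38 CPM in TCR alone and 1.51, 2.21 and 2.09 CPM in TCR+DMGV, so the groups did not overlap. Its log2 fold change of -0.63 had a standard error of 0.23, an unadjusted p of 0.0306 and an adjusted p of 0.999 in edgeR. Of the 11 transporter genes 10 were tested, 5 with a higher and 5 with a lower mean in TCR+DMGV, and the median was 0.01. The list of nitric oxide synthases and their cofactor supply had 7 of 11 genes tested and a median of 0.01. Nosip, a protein that binds nitric oxide synthases, had a log2 fold change of 0.14, and Qdpr, which regenerates tetrahydrobiopterin, one of 0.19.

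Myc, the transcription factor that drives Odc1, had 313, 310.3 and 337 CPM in TCR alone and 358, 326 and 323 CPM in TCR+DMGV, with overlapping groups and a 95% interval of -0.11 to 0.25. In the Myc network 11 of 12 genes were tested, with a median of -0.01, and Mlx, a partner in that network, had the smallest p with a log2 fold change of 0.28. All 12 growth genes driven by Myc were tested, with a median of 0.02. Npm1, a nucleolar protein and the most abundant of them, had 4059, 4351 and 2524 CPM in TCR alone and 2715, 4207 and 4368 CPM in TCR+DMGV, which repeats the pattern of Amd1 with low values in both libraries that stood apart. Fbl, the fibrillarin gene, had a log2 fold change of 0.12.

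The sample profile of Odc1 was compared with those of 9042 genes with a mean log2 CPM above 3, by the root mean square difference of centred log2 CPM over the 6 samples. The 5 most like genes were Smpd2 (0.0433), Zfp239 (0.0576), Pex2 (0.06), Gbp8 (0.0673) and Ntmt1 (0.068). Nos2 lay below that level and was not compared. Of the other genes described here Srm was the most like Odc1, with a difference of 0.15 and rank 1000, followed by Sms at rank 1045. Oaz2 was the least like it, with a difference of 0.47 and rank 8636. The samples share libraries and depth, so this order is a description.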

How the data were processed

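RNA of 6 samples was sequenced, and the labels call the 3 samples of each group biological replicates. Reads were filtered with SOAPnuke and mapped with HISAT2 2.0.4, and StringTie gave the expression values. The deposited gene and transcript counts are whole numbers, not normalized, and how StringTie's output became counts is not given in the sources used here. In the deposited FPKM the values are corrected for length and for each sample's total. Gene FPKM is not the sum of the transcript FPKM, and how they relate is not given in the sources used here. In TCR alone replicate 1 Oaz1 had 37.5 FPKM as a gene, and its transcript Oaz1-203 had 54.3. Levels and ratios of genes are from gene FPKM. The submitters' processing notes name the build mm9, but 99.7% of the gene identifiers, without version, are those of GENCODE M21 (GRCm38) (99.97% of all counts), so positions and transcript sequences are from that annotation. Total counts were 37758725, 41593014 and 40327431 in TCR alone and 43587243, 43718867 and 40492457 in TCR+DMGV, above the read depth that the labels state. The precision of a level from these counts is limited by the spread between samples, and Wilson intervals of shares cover counting error only.

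Genes and transcripts were tested with edgeR 4.0.16 in R 4.3.3 (quasi-likelihood, two-sided, TMM scaling, edgeR's default filter on low counts), adjusted by Benjamini-Hochberg over all features, with a threshold of 0.05. CPM is on the TMM scale. Intervals are 95%. Alternatives were DESeq2 1.42.0, limma 3.58.1 on log2(FPKM + 1) or log2(FPKM + 0.1), other scalings and filters, a replicate block and each sample left out. A GC correction (loess, span 0.3) and leaving out both libraries that stood apart were added after the data were seen. On simulated data, edgeR with and without the block, DESeq2, limma on log2(CPM + 1) and the test of transcript use were tried. The GC correction was tried there only with its offsets set to 0. The fits on FPKM, the other scalings and filters and the fits with samples left out were not tried on simulated data.

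The genes of this set and the lists were chosen with earlier results of these data known. The genes named besides the 9 were, in each pathway list, those past the adjusted threshold, that of smallest p and that of highest FPKM, in each marker list that of highest FPKM, the 5 genes most like Odc1 by profile, and transcripts with 10% of a gene's counts in any sample. Others were named after their values were seen (Amd2, Oaz1-ps, Oaz1-205, Trbc1, Blk, Fcer2a, Klre1, Hba-a1, Hba-a2, Nos1, Nos3, Sat2, Otc and the markers at 0). Of the listed symbols 1 was not matched. Protein sequences were not used here, and 1 gene chosen with the set is not reported here.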

Additional observations from a re-analysis of the deposited data

How the results depend on the processing

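No gene of the set passed the adjusted threshold of the gene test under any of the alternatives run, with 0.649 as the lowest adjusted p. Sat1 passed that of transcript use without TCR+DMGV replicate 2 (adjusted p 0.00955, edgeR), as did 171 of 8232 genes in that fit. The number of genes past the threshold was 2 in the main test. It was 14 with DESeq2, 1 with library size alone, 1 with every gene with a count, 0 with log2(FPKM + 1) and with log2(FPKM + 0.1) (765 and 710 genes at an unadjusted p under 0.05 in limma), 1 with the GC correction, 12 without both libraries that stood apart, and 0 to 5 with each sample left out. The number of transcripts was 0 in the main test, 387 with DESeq2, 3 with log2(FPKM + 1) and 0 to 1 with a sample left out. The number of genes with changed transcript use was 108 in the main test, 172 with every transcript with a count, 219 without both libraries apart and 151 to 171 with a sample left out. The cause of these shifts was not tested.

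With the replicate number as a block, 0 genes passed (340 at an unadjusted p under 0.05) and 41 genes had changed transcript use. The deviations of samples with the same number correlated at -0.417, 0.214 and -0.306, so the numbers were not taken as pairing. Under the block the log2 fold change of transcript Azin1-203 was -0.005, against 0.01 in the main test.

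Signs of the small changes were not stable. Under the GC correction the log2 fold changes of Amd1 and Nos2 were 0.025 and -0.014. Without both libraries apart they were 0.054 for Srm and for Srm-201, 0.028 for Oaz2, -0.058 for Nos2, 0.016 for Ahcy, 1.56 for Sat1-202 and -0.26 for Azin1-203, which was -0.018 on log2(FPKM + 1). With each sample left out in turn, log2 fold changes ran from -0.16 to 0.12 for Odc1, -0.27 to 0.12 for Amd1, -0.073 to 0.033 for Srm, -0.20 to 0.024 for Sms, -0.038 to 0.15 for Sat1, -0.11 to 0.33 for Azin1, -0.041 to 0.13 for Oaz1, -0.25 to 0.55 for Nos2, -0.001 to 0.13 for Slc3a2, -0.12 to 0.028 for Ahcy, -0.053 to 0.013 for Slc7a1 and -0.16 to 0.23 for Npm1. For transcripts they ran from -0.18 to 0.11 for Odc1-201, -0.28 to 0.12 for Amd1-201, -0.06 to 0.033 for Srm-201, -0.24 to 0.014 for Sms-201, -0.25 to 0.11 for Sat1-201, -1.40 to 0.35 for Sat1-205, -10.16 to 0.97 for Sat1-202, -1.07 to 0.12 for Azin1-205, -0.19 to 0.11 for Azin1-203, -0.083 to 0.23 for Oaz1-201 and -0.084 to 0.26 for Oaz1-203. That of Azin1-201 kept its direction, from 1.51 to 3.00, and its unadjusted p was above 0.05 in edgeR without TCR alone replicate 2 or 3, without TCR+DMGV replicate 3 and without both libraries apart (0.0869, 0.0714, 0.0885 and 0.107). The differences of log2 ratios ran from -0.213 to 0.0493 for Odc1 to Oaz1, -0.486 to 0.103 for Odc1 to Azin1, -0.0482 to 0.233 for Srm to Sms, -0.0164 to 0.168 for Sat1 to Srm and -0.276 to 0.197 for Amd1 to Odc1.

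Aldh18a1 and Slc7a3 kept their direction in every alternative run. The unadjusted p of Aldh18a1 was 0.0515 with DESeq2, 0.0967 under the block, 0.091 in edgeR without both libraries apart and up to 0.116 with a sample left out. That of Slc7a3 was 0.0668 on log2(FPKM + 0.1) in limma, 0.0543 under the block, 0.209 in edgeR without both libraries apart and up to 0.0942 with a sample left out. Some other log2 fold changes kept their sign but moved in size with a sample left out. They ran from 0.044 to 0.376 for Qdpr, 0.086 to 0.205 for Nosip and 0.023 to 0.266 for Enoph1. For Psma1, Mlx and Fbl they ran from 0.019 to 0.124, 0.179 to 0.407 and 0.064 to 0.191.

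Nos2 had at most 42 counts in a sample, and what limits its interval was not tested.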
